A study of Mus musculus with 4 samples.

Results

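Double positive (DP) thymocytes that were not in cycle, taken from transplanted mouse thymi labelled autonomy, were divided by the state of their T cell receptor beta chain (TRB). Cells with at least 1 productive, full-length TRB contig formed the group with productive TRB, and cells whose TRB contigs were all unproductive or incomplete formed the group without it. A contig is a receptor transcript assembled from the reads of a single cell. Of 4587 autonomy barcodes, 3123 had 1000 to 6000 UMIs (unique molecules), no Mki67 or Top2a UMI, at least 1 Rag1 UMI, at least 3 UMIs of Cd8a plus Cd8b1 and no Itm2a UMI. Among them 2935 had a TRB contig, of which 2203 were in the group with productive TRB and 732 (24.9%, 95% exact interval 23.4 to 26.5) in the group without. The remaining 188 had no TRB contig and were described apart.

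The series profiled wild-type mouse thymi 28 days after transplantation, in a condition called autonomy and a condition called turnover. Autonomy names a thymus that keeps producing T cells from its own cells, and turnover one whose thymocytes are replaced by incoming progenitors. Thymocytes labelled as DN3-DN4, immature single positive and DP were sorted and run on a droplet 5′ gene expression assay with a matched V(D)J assay of receptor chains. Each condition had 1 library of each kind, and the hosts and the number of thymi pooled are not given in the sources used here. Both groups compared here came from the same autonomy library, so they shared genotype, transplantation time, sort and run, and no spread between animals could be measured. No test was made. Intervals are 95%, cover counting error only and treat cells and UMIs as independent, although many cells shared a TRB chain.

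A developing T cell joins V, D and J segments at the TRB locus at the DN3 stage, when Notch signals are strong. A productive beta chain pairs with the pre-TCR alpha chain encoded by Ptcra, and signals of this pre-TCR stop DN3 genes, drive division and lead to the DP stage, a checkpoint called beta selection. Resting DP cells then join the alpha locus (TRA) by repeated deletional joins that begin at J segments near the 5′ end and move to the 3′ end, until an alpha-beta receptor passes positive selection, which raises Cd5 and Cd69.

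The TRB contigs of the 732 cells fell into 3 kinds. In 343 cells (46.9%, 43.2 to 50.5) at least 1 contig had V, J and a CDR3, the junction that joins them. In 171 cells (23.4%, 20.3 to 26.6) a V and a J were called but no CDR3, and in 218 cells (29.8%, 26.5 to 33.2) no contig had both segments. Of the group with productive TRB, 1172 cells (53.2%, 51.1 to 55.3) carried another TRB contig that was not productive and 214 (9.71%, 8.51 to 11.0) had 2 or more productive chains. No doublet caller was run.

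The CDR3 nucleotide sequences below are 5 of the unproductive chains carried by most cells of the group without productive TRB, and the last is the productive chain found beside the first of them in other cells. They are shown because 3 of them hold a stop codon that can be read from a known codon, and because cells with an identical chain usually descend from 1 rearranged cell. Capitals mark the first stop codon (TAA, TAG or TGA) when codons are read from the motif TGTGCCAGC, searched on the coding strand. Many V segments carry this motif at the conserved cysteine codon, and the chains with no capitals hold no such stop or lack the motif.
TRBV4-TRBJ2-3, 122 cells: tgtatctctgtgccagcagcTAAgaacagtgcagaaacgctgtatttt
TRBV15-TRBJ2-7, 14 cells: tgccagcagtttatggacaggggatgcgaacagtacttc
TRBV4-TRBJ2-5, 9 cells: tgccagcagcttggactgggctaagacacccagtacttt
TRBV4-TRBJ2-5, 9 cells: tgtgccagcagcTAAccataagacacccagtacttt
TRBV4-TRBJ1-3, 8 cells: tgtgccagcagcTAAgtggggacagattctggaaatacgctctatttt
TRBV19-TRBJ2-4, productive, 30 cells of the library: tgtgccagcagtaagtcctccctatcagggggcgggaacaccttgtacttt

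In the TRBV4-TRBJ2-3 chain the motif began at base 9 and the stop codon at base 21, and the bases from the motif to the end of the CDR3 left a remainder of 1 when divided by 3, so V and J were out of frame. In the 36-base TRBV4-TRBJ2-5 chain and the TRBV4-TRBJ1-3 chain the motif began at base 1, the remainder was 0 and a stop codon began at base 13, so V and J shared a frame that a stop interrupted. Many of these unproductive chains also occurred in cells that had a productive one. Of the 732 cells, 262 (35.8%, 32.3 to 39.4) carried an unproductive V-J chain that was found beside a productive TRB elsewhere in the library, by identical V, J and CDR3 or, without a CDR3, by V, J and contig length. The length match can join unrelated contigs, and by CDR3 alone the count was 223 cells (30.5%, 27.1 to 33.9). Without the largest chain the share by the first definition was 23.0%. In the turnover library, 4 of 228 cells (1.75%, 0.480 to 4.43) met the first definition and 0 of 228 the second, which allows a share of up to 1.60%.

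Transcripts of Trbv genes in the gene expression library offered a check of the label that the rule did not use. All Trbv genes summed to 3446 counts per 1000000 UMIs of the group (CPM) in the group without productive TRB and 7063 with it, a ratio of 0.488 (0.475 to 0.501). At least 3 Trbv UMIs were present in 627 of 732 cells (85.7%) and in 2170 of 2203 cells (98.5%). In 383 cells without productive TRB (52.3%, 48.6 to 56), however, 3 or more UMIs belonged to a Trbv gene that was the V call of none of the cell's TRB contigs. The same held in 593 cells with productive TRB (26.9%, 25.1 to 28.8), at median depths of 2285 and 2317 gene expression UMIs. This background is unlike in 1 respect, since by the rule each of its cells had a contig with a V call. In 341 of these 593 cells the leading gene was Trbv13-2, and with Trbv13-2 not counted the shares were 40.3% (36.7 to 44.0) and 12.9% (11.5 to 14.4). A V gene without a matching contig was more frequent in cells without a productive contig. Part of this follows from the grouping, since 218 of the 732 cells had no contig with both V and J. Among the 514 cells with a V-J contig, 242 had no transcripts of another Trbv gene, beside 1610 of the 2203 cells with productive TRB. For the cells without productive TRB the label states what was assembled, not that no productive chain was made.

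Trbv19 was the leading such gene in 132 of the 383 cells, Trbv13-2 in 113 and Trbv26 in 32. Trbv19 transcripts were frequent in the largest chain. Of its 122 cells without productive TRB, 120 had Trbv19 UMIs, 7.70 per cell on average, and all 28 resting cells of the same chain with productive TRB had them as well, 7.93 per cell. A contig of mixed chains with a TRBV segment was present in 112 of the 122 cells and in 4 of the 28. In the whole library 192 mixed contigs were annotated as TRBV19, TRAJ50 and TRBC2. No TRB contig of either library was called TRBV26, yet Trbv26 reached 169 CPM without and 32.1 with productive TRB, a ratio of 5.28 (4.36 to 6.40). In the turnover library Trbv26 stood at 1960 and 82.2 CPM, and 74 of its 228 cells without productive TRB had 3 or more Trbv26 UMIs.

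The question across all genes was how resting DP cells differed in expression when no productive TRB had been assembled. The UMIs of each gene were summed over each group and divided by the group's total (1766822 and 5425611 UMIs), and a gene was compared if it would have had at least 25 UMIs in each group at equal levels. Of 7287 such genes, 121 (1.66%) stood above by 1.5-fold or more and 173 (2.37%) stood below by as much in cells without productive TRB, with a median log2 ratio over all genes of 0.01. Cells without productive TRB held more transcripts of the pre-TCR chain Ptcra, of Notch pathway and DN3 genes and of Ly6d, and fewer of Cd5, Cd2 and Tmsb10. These calls rest on 1 library. With each TRB chain counted once they numbered 244 and 283 of the same 7287 genes, chains of 1 cell weighing as much as large ones. Without cells that had transcripts of another Trbv gene they numbered 76 and 114, with the minimum applied anew to fewer UMIs. Of the 294 genes past 1.5-fold in all cells, 289 kept their direction there and 226 stayed past it. Fewer cells with a transcript and less transcript in each cell cannot be told apart from such sums.

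**Figure D1:**
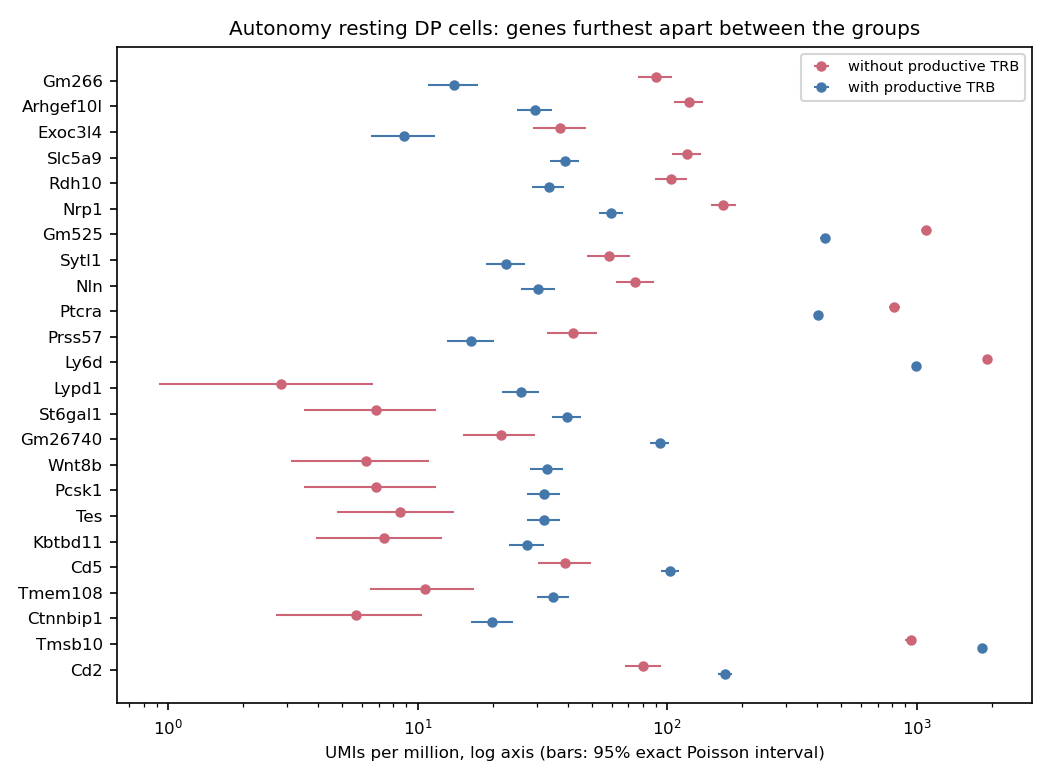
CPM (log axis) of the 12 genes furthest above and the 12 furthest below equality in resting DP cells without (red) and with (blue) productive TRB, with 95% exact Poisson intervals. Gm266 stood at 90.0 against 14.0 and Lypd1 at 2.83 against 26. The genes were chosen by their ratio intervals, so the separation of the groups in this figure is not a result.

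The constant and signalling parts of the receptor came first. Trbc2, the second beta constant gene, was at 3111 CPM without and 2652 with productive TRB, a ratio of 1.17 (1.14 to 1.21), whereas Trbc1 was at 420.0 and 616, a ratio of 0.682 (0.629 to 0.739). Of the Trbc1 UMIs in the group with productive TRB, 23.4% came from the 97 cells of 1 TRBV3-TRBJ2-2 chain. The Trbc1 ratio depended on which cells were compared. It was 0.953 with each TRB chain counted once, 1.07 in cells with Xist and no Y-linked UMIs, 0.423 in cells with Y-linked and no Xist UMIs and 0.318 with the group without productive TRB limited to full-length V-J contigs. Within that group Trbc1 stood at 195 CPM (171 to 221) in the 514 cells with a V-J contig and at 964 (882 to 1053) in the 218 cells with none. The sum of both genes had a ratio of 1.08 (1.05 to 1.11), so TRB constant transcripts were present in both groups although V transcripts were lower by more than 2-fold. Trac, the alpha constant gene, was lower without productive TRB at 111.5 against 162 CPM (ratio 0.688, 0.587 to 0.804). The delta and gamma constant genes Trdc, Tcrg-C1, Tcrg-C2 and Tcrg-C4 had 16, 3, 3 and 2 UMIs in the group without productive TRB, all under the minimum, and the gamma V genes summed to 44 and 54 UMIs, a ratio of 2.50 (1.64 to 3.80).

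Of 13 genes for the pre-TCR and CD3 chains and their kinases, 13 passed the minimum and Ptcra was the one past 1.5-fold. Over all genes 1.66% were higher. Ptcra (chromosome 17, 46755663 to 46763712 in GRCm38.p6, the mm10 assembly) was at 814 CPM (773 to 858) without and 403 (386 to 420) with productive TRB, a ratio of 2.02 (1.89 to 2.16). Cd3e, a signalling chain of both the pre-TCR and the TCR, was at 2139 and 2026, a ratio of 1.06. Rag1 and Rag2, the recombinase, had ratios of 1.14 and 1.0, and Dntt, which adds bases at junctions, 1.13, all within 1.5-fold. Rag1, Cd8a and Cd8b1 were used to choose the cells, so their presence is not a result. Of 9 recombination genes past the minimum, Prkdc and Xrcc5, which act in end joining, were higher, at 1.56 (1.11 to 2.19) and 1.62 (1.06 to 2.45), beside 1.66% higher over all genes.

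Genes that mark DN3 cells or respond to Notch were higher together. Of 17 DN3 markers 5 passed the minimum and 12 did not, and the 5 were at least 1.5-fold higher (median log2 ratio 0.76, against 0.01 and 1.66% higher over all genes). Notch1, the receptor, was at 331 and 180 CPM (ratio 1.84, 1.66 to 2.04), and Notch3 had a ratio of 1.59 (1.21 to 2.09). Dtx1, a Notch target that encodes Deltex, was at 465 and 300.1 (1.55, 1.42 to 1.69). Il2ra, the CD25 chain lost after beta selection, was at 205 and 121 (1.70, 1.49 to 1.93). Of 12 Notch receptors and targets 6 passed, 5 of them the same genes as in the DN3 list, and the other gene, Tcf7, was within 1.5-fold. Myc had 47 and 48 UMIs and stayed under the minimum, and 38.3% of its UMIs without productive TRB came from the largest chain.

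**Figure D2:**
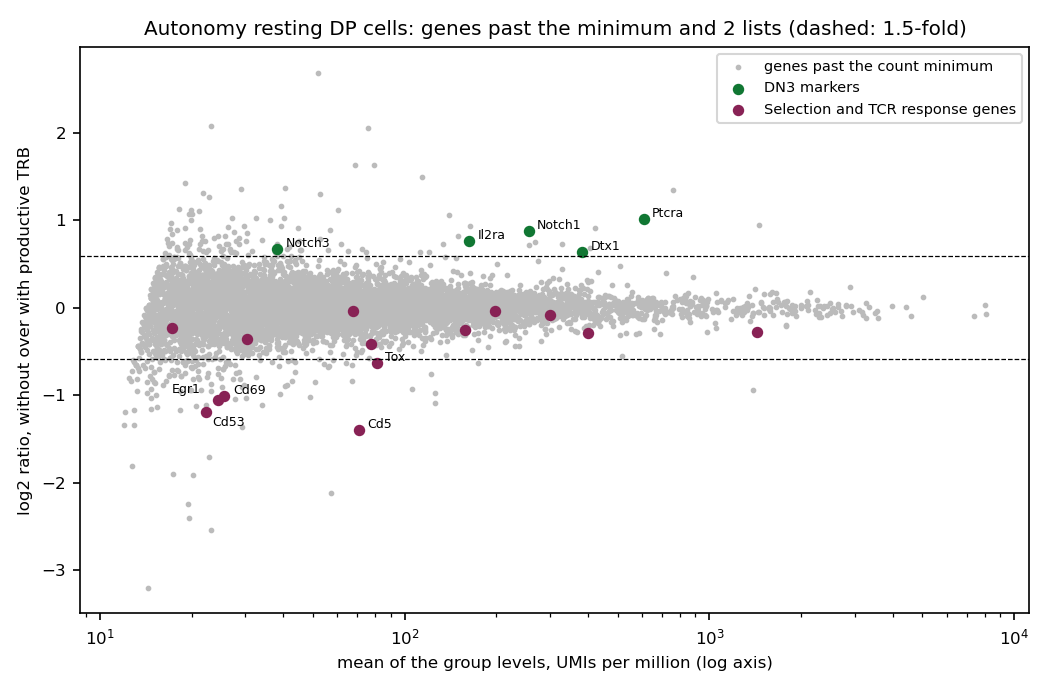
Log2 ratio of CPM without over with productive TRB against the mean level (log axis) for genes past the count minimum, receptor segment genes left out, with DN3 markers in green and selection and TCR response genes in purple. All 5 DN3 markers lie above the upper 1.5-fold line, and 5 of 14 selection and TCR response genes lie below the lower one.

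Several genes of receptor signalling were lower. Of 24 selection and TCR response genes 14 passed, 0 were at least 1.5-fold higher and 5 lower (median log2 ratio -0.33, beside 2.37% lower over all genes). Itm2a, a member of this list, was set to 0 by the choice of cells. Cd5 (chromosome 19, 10718107 to 10739026), a surface inhibitor whose level follows the strength of receptor signals, was at 39.1 CPM (30.4 to 49.4) without and 103 (94.7 to 112) with productive TRB, a ratio of 0.379 (0.291 to 0.487). Cd69 (ratio 0.495, 0.325 to 0.731) and Egr1 (0.483, 0.312 to 0.722), both early response genes, Cd53 (0.439, 0.273 to 0.675), a tetraspanin, and Tox (0.643, 0.520 to 0.789), a nuclear factor of selected thymocytes, were the other 4. Of 14 beta-selection response genes 7 passed, 0 were higher and 2 were lower, beside 2.37% lower over all genes. These 2 were Cd5 and Egr1, which the list above already counted. Id3, an inhibitor of E proteins that signals induce, was at 292 and 309 CPM, within 1.5-fold.

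Among genes of resting DP thymocytes, some were level between the groups and others were not. Cd4, the coreceptor, was at 960.5 and 974 CPM, and Bcl2l1, a survival gene of DP cells, was at 226 and 245. Of 19 coreceptor and resting DP genes past the minimum, Ly6d and Slc7a11 (1.60, 1.31 to 1.94) were higher, beside 1.66% over all genes, and Cd2 and Tox lower, beside 2.37%. Cd2, an adhesion receptor, was at 80.4 and 171 (ratio 0.470, 0.391 to 0.562). Cell cycle genes (14 passed), growth and metabolism genes (15), ribosomal protein genes (20) and mitochondrially encoded genes (13) had 0 members past 1.5-fold in either direction. Over all genes 1.66% were higher and 2.37% lower, so lists of this size would hold few such members in any case. The cell cycle list had a median log2 ratio of -0.19, and cells with Mki67 or Top2a UMIs were left out by the rule. Bbc3 and Zmat3, targets of p53, were lower among 8 that passed, at 0.658 (0.489 to 0.872) and 0.445 (0.264 to 0.714), beside 2.37% lower over all genes. Bst2 was the 1 interferon-stimulated gene of 13 past 1.5-fold, at 1.68 (1.52 to 1.86), beside 1.66% higher over all genes.

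Markers of other cells were present at low levels in both groups. Of 15 macrophage and dendritic cell markers 11 passed, C1qa was higher (1.52, 1.15 to 1.99) and H2-Eb1 lower (0.634, 0.365 to 1.05), and the list summed to 606 and 580.2 CPM. Over all genes 1.66% were higher and 2.37% lower. Of 8 B cell markers 2 passed, and the list summed to 573 and 548 CPM. Cd79b, a partner of the B cell receptor, was higher at 82.6 and 38.2 (2.17, 1.74 to 2.69), and the other that passed was within 1.5-fold. Cd79a, Ms4a1, Pax5 and Igkc had no UMI in either group. For NK and innate lymphoid markers the sums were 212 and 149, with Nkg7, Gzmb, Eomes and Ncr1 at 0. Gzma held 311 of the 374 UMIs of this list without and 643 of the 810 with productive TRB. The part of these transcripts in the differences was not tested. By shares of cells the sexes were mixed to a similar degree. Xist and no Y-linked UMI were found in 36.2% and 36.8%, and Y-linked and no Xist UMIs in 19.8% and 22.2%. Of 4 sex genes past the minimum, Y-linked Eif2s3y was lower at 0.650 (0.471 to 0.882), beside 2.37% lower over all genes. The mix was uneven between chains, since the 122 cells of the largest chain held 2 of the 697 Xist UMIs without productive TRB.

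Beyond the lists, the genes furthest apart were mostly of low or middle level. Gm266 was at 90.0 CPM without and 14.0 with productive TRB, a ratio of 6.42 (4.86 to 8.56). Ratios of 2.46 to 4.22 were found for Exoc3l4, Arhgef10l, Rdh10, a retinol dehydrogenase, Slc5a9, a sugar transporter, Nrp1, the neuropilin 1 coreceptor, Sytl1, Prss57, Gm525 and Nln, a peptidase. Gm525 and Ly6d were abundant as well. Gm525 (chromosome 11, 89073841 to 89093064) was at 1091 and 429 CPM (ratio 2.55, 2.40 to 2.70). Ly6d (chromosome 15, 74762056 to 74763567), a surface protein of early lymphoid and DP cells, was at 1911 and 990.5 (1.93, 1.85 to 2.01).

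On the low side stood Lypd1, with 5 and 141 UMIs (0.109, 0.0348 to 0.260), and St6gal1, a sialyltransferase, with 12 and 215 (0.171, 0.0872 to 0.306). Lypd1 was the property of few chains: 65.2% of its 141 UMIs came from the 105 cells of 1 TRBV29-TRBJ2-5 chain. With each chain counted once its ratio was 0.994, and in cells with Xist and no Y-linked UMIs it was 1.86. The UMIs of St6gal1 came from 104 chains, with 4.65% from the leading one, and its ratio was 0.119 with each chain counted once and 0.544 in cells with Y-linked and no Xist UMIs. Wnt8b (0.189), Pcsk1, a prohormone convertase (0.212), Gm26740 (0.230), Tes (0.265), Kbtbd11 (0.268), Ctnnbip1, an inhibitor of beta-catenin (0.284), and Tmem108 (0.307) were also lower. Tmsb10, which binds actin monomers, was the most abundant gene of this kind, at 947 and 1826 CPM (0.519, 0.492 to 0.547).

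The same genes were then followed across chains, since cells with an identical chain usually share a founder. Contigs without a CDR3 were grouped by their segments and length, which can join unrelated cells. The 732 cells without productive TRB carried 424 chains and the 2203 cells with it 524. Among chains of at least 8 cells (7 without, 68 with productive TRB), Ptcra ran from 328 through a median of 711 to 1231 CPM without and from 0 through 354 to 1459 with productive TRB. The ranges overlapped, and single chains of either group could be high. For Ly6d the medians were 2769 and 643, and for Gm525 they were 2081 and 164. Cd5 had a median of 0 with a highest value of 48.1 without, and a median of 69.7 with a highest value of 443 with productive TRB. A chain of 8 cells without productive TRB held 16696 UMIs in all, so the median of 0 is a counting floor. The 443 came from a chain of 8 cells, and 68 chains can range more widely than 7 by their number alone.

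**Figure D3:**
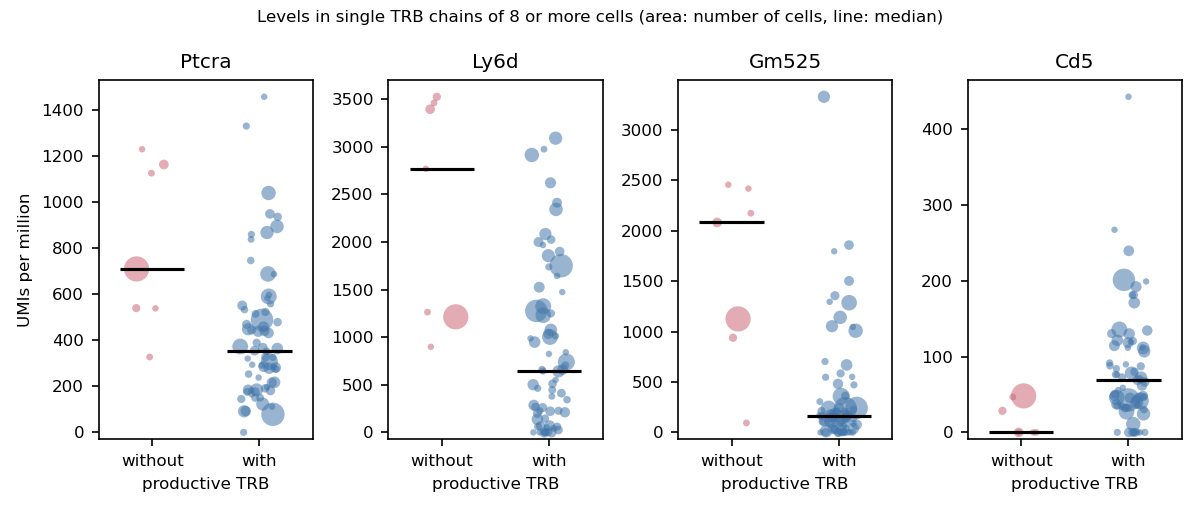
CPM of 4 genes in single TRB chains of at least 8 cells, 7 without and 68 with productive TRB, point area proportional to the number of cells and lines at the medians. Groups overlap in every panel, and the medians of Ptcra are 711 and 354.

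Chains found in both groups allowed a comparison between cells that shared an unproductive TRB allele. There were 22 such chains with a CDR3, with 209 cells without and 82 with productive TRB. Over all 22 chains Ptcra had a ratio of 1.41 (1.14 to 1.75), Gm525 of 1.5 (1.27 to 1.78), Ly6d of 1.27 (1.11 to 1.46), Cd5 of 0.496 (0.273 to 0.902) and Tmsb10 of 0.611 (0.537 to 0.697). Without the largest chain (87 and 54 cells) Ptcra had a ratio of 1.77 (1.33 to 2.36), Gm525 of 2.13 (1.70 to 2.69), Ly6d of 1.75 (1.48 to 2.08), Nrp1 of 2.81 (1.32 to 6.64) and Tmsb10 of 0.412 (0.336 to 0.503). Il2ra and Dtx1 had intervals that reached 1 there, 1.14 (0.679 to 1.94) and 1.19 (0.841 to 1.68). Trac, lower over all cells, was not lower here. Its ratio was 1.11 (0.676 to 1.86) over all 22 chains and 1.35 (0.714 to 2.66) without the largest.

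The largest chain was taken alone. Between its 122 cells without and 28 cells with productive TRB, which had Trbv19 transcripts at similar levels (above), Ptcra was at 711 and 698 CPM (ratio 1.02, 0.738 to 1.43), Gm525 at 1125 and 1193 (0.943, 0.737 to 1.22) and Ly6d at 1214 and 1353 (0.897, 0.711 to 1.14). Tmsb10 had a ratio of 0.737 (0.604 to 0.903), and Cd5 had 13 and 2 UMIs, too few for a comparison. Dtx1 had a ratio of 1.59 (0.987 to 2.69) and Il2ra of 1.53 (0.679 to 4.03), near those over all cells but with intervals that reached 1. Rdh10 had 30 UMIs and 1 UMI, a ratio of 7.63 (1.27 to 311). Both sides of this chain thus stood above the 403 CPM of Ptcra in all cells with productive TRB. The TRBV15-TRBJ2-7 chain differed in kind, since the 40 cells of the library that carried it beside a productive TRB had 27 different productive chains. Among its 14 resting cells without and 22 with productive TRB, Ly6d was at 3312 and 1126 CPM (2.94, 2.16 to 4.04), Tmsb10 at 507 and 1901 (0.267, 0.155 to 0.437), Cd2 had 0 and 11 UMIs, and Ptcra was at 561 and 422 (1.33, 0.703 to 2.49).

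The cells were also divided into 5 sets by their evidence for a productive chain. Ptcra was at 314 CPM (292 to 336) in the 1031 cells with a productive and no other TRB contig and at 482 (457 to 508) in the 1172 that also carried an unproductive one. In the 383 cells without a productive contig but with transcripts of another Trbv gene it was at 753 (699 to 810.0), in the 349 without such transcripts at 888 (824 to 955), and in the 188 cells with no TRB contig at 1006 (904 to 1117). Cd5 had the opposite order in its outer groups, at 105 (93.1 to 119), 101 (89.7 to 113), 51.0 (37.8 to 67.5), 24.8 (15.1 to 38.3) and 25.8 (11.8 to 49.0), with the first 2 and the last 2 not told apart by their intervals. Ly6d did not keep such an order. In the same sequence of sets it was at 880 (844 to 917), 1088 (1050.4 to 1127), 2025 (1936 to 2117), 1776 (1686 to 1871) and 2004 (1858 to 2158). Cd2 was at 182 (165 to 199), 161 (147 to 177), 102 (82.9 to 124), 54.5 (39.6 to 73.2) and 77.4 (51.0 to 113), with overlapping intervals in the last 2 sets. Il2ra at 194 (167 to 224) and 218 (187 to 253), and Dtx1 at 467 (424 to 512) and 462 (417 to 512), were not told apart between the cells with and without another Trbv transcript. In the 188 cells with no TRB contig, 9 had a TRA contig (4.79%), so nearly all of them yielded no receptor contig of either chain.

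**Figure D4:**
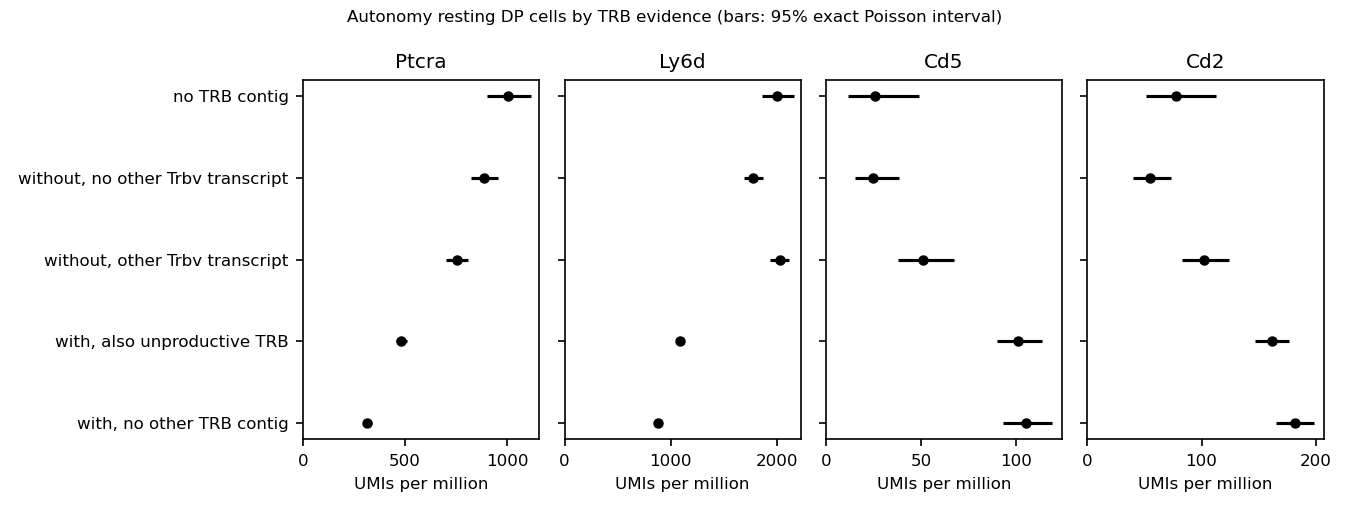
CPM of Ptcra, Ly6d, Cd5 and Cd2 (bars: 95% exact Poisson intervals) in 5 sets of autonomy resting DP cells ordered by their TRB evidence. Ptcra runs from 314 in cells with a productive and no other TRB contig to 1006 in cells with no TRB contig, and Cd5 from 105 to 25.8.

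TRA rearrangement was compared next. A TRA contig of any kind was found in 473 of 732 cells without productive TRB (64.6%, 61 to 68.1) and in 1613 of 2203 with it (73.2%, 71.3 to 75.1), a ratio of shares of 0.883 (0.832 to 0.936, log-normal interval). Chains with V and J numbering 2 or more were found in 49 (6.69%, 4.99 to 8.75) and 244 cells (11.1%, 9.80 to 12.5), a ratio of 0.604 (0.450 to 0.812). They can come from joins on both alleles or from doublets, which were not called. Productive TRA contigs were found in 275 cells (37.6%, 34 to 41.2) and 883 cells (40.1%, 38.0 to 42.2), a ratio of 0.937 (0.843 to 1.04) that was not told apart from 1. TRA contigs with V and J, the product of a join, were found in 59.4% (55.8 to 63.0) and 68.2% (66.2 to 70.2), so most cells of both groups had joined the alpha locus. In the 122 cells of the largest chain, 78 had a TRA contig, and the 41 with a productive one held 42 different productive CDR3 sequences.

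Depth moved with the groups, since TRB contigs had a median of 7 UMIs per cell (quartiles 4 and 11) without and 17 (11 and 25) with productive TRB, while TRA contigs had a median of 2 in both. Within bands of TRB UMIs the ratio of shares for any TRA contig was 0.932 (0.708 to 1.23) at 2 to 3 UMIs, 0.897 (0.788 to 1.02) at 4 to 7 and 0.879 (0.807 to 0.958) at 8 or more. At 1 TRB UMI there were 18 and 5 cells. Within bands of gene expression UMIs it was 0.951 (0.848 to 1.07) from 1000 to below 2000, 0.883 (0.819 to 0.952) from 2000 to below 3000 and 0.772 (0.648 to 0.920) from 3000 to 6000. The ratio was below 1 in each of these bands, and its interval reached 1 in 3 of the 6. For 2 or more V-J TRA chains, the ratios in the same TRB bands were 0.868 (0.197 to 3.82), 0.697 (0.361 to 1.35) and 0.648 (0.429 to 0.979). In the gene expression bands they were 0.898 (0.524 to 1.54), 0.579 (0.392 to 0.854) and 0.344 (0.140 to 0.843).

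Segment use differed along the J cluster. TRAJ segments numbered 40 and above, at the 5′ end that early joins use, made up 98 of 484 V-J TRA chains (20.2%, 16.8 to 24.1) without and 213 of 1752 (12.2%, 10.7 to 13.8) with productive TRB. The median TRAJ number was 23 and 18. Among productive chains the shares were 22.8% (18.1 to 28.0) and 11.4% (9.49 to 13.6). Cells without transcripts of another Trbv gene had 17.1% (12.5 to 22.5) and 10.5% (8.89 to 12.4). In the 22 chains shared by both groups, however, the shares were 18.6% (12.5 to 26) and 20.3% (11.6 to 31.7), which did not differ beyond counting error. Trav transcripts in the gene expression library were at 668 and 925 CPM, a ratio of 0.723 (0.678 to 0.770).

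**Figure D5:**
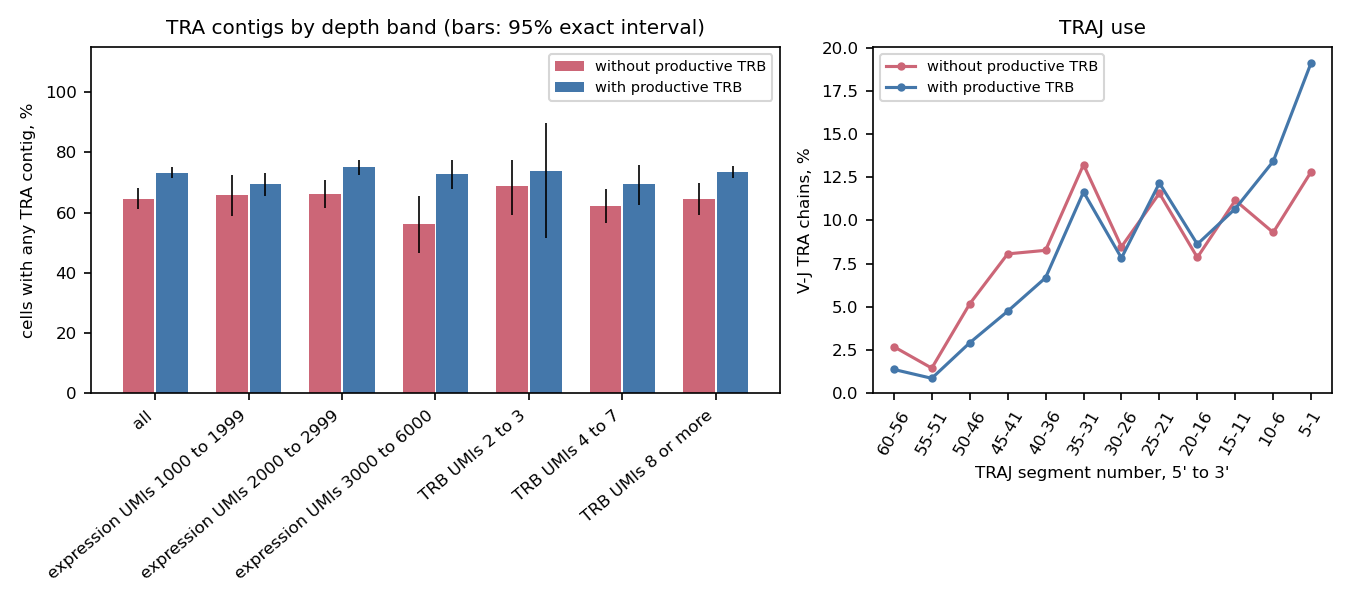
Left, the percent of autonomy resting DP cells with any TRA contig, for all cells and in bands of gene expression or TRB contig UMIs (error bars: 95% exact intervals); right, the percent of V-J TRA chains by TRAJ number from the 5′ to the 3′ end. The group without productive TRB is lower in each band on the left and higher at TRAJ 36 to 60 on the right.

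The same rule in the turnover library gave 2412 cells with a TRB contig, of which 228 (9.45%, 8.31 to 10.7) had no productive one. This share was smaller than the 24.9% of autonomy by intervals that did not overlap, though 122 of the 732 autonomy cells shared 1 chain. Median TRB UMIs per cell without and with productive TRB were 16 and 22 in turnover and 7 and 17 in autonomy. The part of this depth in the shares was not tested. In turnover 21 of 3117 genes (0.674%) were above by 1.5-fold or more and 51 (1.64%) below. No resting turnover cell with a TRB contig had an Xist UMI, so the libraries also differed in the sex of their cells. Ptcra was at 94.8 and 81.1 CPM (ratio 1.17, 0.824 to 1.62), Ly6d at 1267 and 1224 (1.03, 0.946 to 1.13), Gm525 at 85.5 and 122 (0.704, 0.490 to 0.982) and Cd5 at 53.2 and 72.6 (0.733, 0.458 to 1.12). Cd2 was lower in turnover as well, at 34.7 and 96.4 (0.360, 0.200 to 0.600). Of the 12 genes furthest up in autonomy 3 passed the minimum in turnover and 0 of them were past 1.5-fold, and of the 12 furthest down 6 passed and 1, Cd2, was past it. Any TRA contig was found in 73.2% (67.0 to 78.9) and 76.1% (74.3 to 77.9) of turnover cells. Cells with 2 or more V-J TRA chains made up 6.14% (3.4 to 10.1) and 12.2% (10.9 to 13.7), a ratio of 0.502 (0.299 to 0.845) beside the 0.604 of autonomy. TRAJ 40 and above made up 21.0% (15 to 28.1) and 24.7% (22.8 to 26.8) of their V-J TRA chains. The difference between the libraries in these contrasts was not tested, and library and condition cannot be told apart.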

How the data were processed

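Count tables held UMIs per gene and cell, and V(D)J tables held contigs with counts of UMIs and reads, contig length, segment and productive calls, all as deposited by the authors. Cell Ranger 3.0.2, Seurat 3.1.3.9002 and mm10 are named per the submitters' processing notes, without their roles. Annotation, cell calling and V(D)J reference are not given in the sources used here. Barcodes were matched between the libraries of a condition, 31 gene expression and 27 V(D)J barcodes occurred in both conditions, and 0 shared a CDR3.

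UMIs were summed per group and scaled to its total. Ratios carry conditional exact binomial intervals, levels Poisson intervals and shares Clopper-Pearson intervals. Genes needed 25 expected UMIs per group. Genes were named if among the 12 furthest above or the 12 furthest below by the interval bound nearest to 1, with a ratio of at least 1.2-fold and receptor segments left out, if on a list of genes always reported, or among up to 3 members by rank of each list. Xrcc5, Notch3, Tox, H2-Eb1, Tcf7 and 5830405F06Rik were named after their values were seen. Of 84 genes named by rule, 78 matched the RefSeq table of GRCm38.p6. Members and lists were chosen with earlier results of these data known. The ratio table was tested on simulated data. Python 3.11.15, scipy 1.17.1, pandas 2.3.3 and, for TMM factors, edgeR 4.0.16 were used. Some genes and 1 sequence are not reported here.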

Additional observations from a re-analysis of the deposited data

Results flagged for a closer look

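5830405F06Rik went in opposite directions in the libraries. Its ratio without over with productive TRB was 1.91 in autonomy (1.67 to 2.17, 381 and 614 UMIs) and 0.297 in turnover (0.175 to 0.474, 18 and 623 UMIs), and the difference was not tested.

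Signals appeared in data that the comparisons do not use. Contigs of mixed chains with a TRBV segment were present in 142 autonomy cells without productive TRB (19.4%, 16.6 to 22.5) and in 26 with it (1.18%, 0.772 to 1.72). Trbv26 had no TRB contig, yet 33 autonomy cells without productive TRB (4.51%, 3.12 to 6.27) and 19 with it (0.862%, 0.520 to 1.34) had 3 or more of its UMIs, as did 74 turnover cells without (32.5%, 26.4 to 39.0) and 32 with productive TRB (1.47%, 1.0 to 2.06).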

How the results depend on the processing

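With 1 library per condition and both groups in it, no interval covers the spread between animals, and TRB depth differed between the groups. No paired analysis was made, since animals are not labelled in the 1 library and chains found in both groups were pooled. A restriction to confident contigs was not run, since every contig was marked confident and in a cell. Of 153 summary values recomputed within autonomy, 116 stayed within their counting interval (counts of genes within 1.5 times) and 37 did not. Of 1677 ratios of the named genes, 1466 stayed within it. Among the named genes, ratios past 1.5-fold crossed 1 within autonomy in 2 cases. These were Eif2s3y at 1.03 with every chain counted once, and Lypd1 at 1.86 in cells with Xist and no Y-linked UMIs. In turnover Gm525 (0.704), Gm26740 (1.28) and Tmem108 (1.09) crossed 1 as well. Ratios nearer to 1, such as Trbc1 (0.318 to 1.07 within autonomy), could cross it too. Some ratios past 1.5-fold came near 1 in a setting within autonomy without crossing it. Examples are Cd53 (0.211 to 0.920), Slc7a11 (1.04 to 1.89) and C1qa (1.05 to 3.39). The cause was not tested. Another minimum compares other numbers of genes, and so does another choice of cells, to which the minimum was applied anew.

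Genes higher and lower numbered 244 and 283 with every chain counted once, over the same 7287 genes. They numbered 54 and 73 in Y-linked-only cells, and 76 and 114 without cells with Trbv transcripts outside their contigs. At a minimum of 10 they numbered 285 and 395, and at a minimum of 50 they numbered 52 and 70. A fold of 2 left 28 and 48. In turnover they numbered 21 and 51 of 3117 genes. Of the 294 genes past 1.5-fold, 289 kept their direction and 226 were still past it without cells with Trbv transcripts outside their contigs. In Y-linked-only cells 267 kept it and 195 were still past the fold, and in Xist-only cells 289 and 217.

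The summed Trbc1 and Trbc2 ratio was 1.12 with 4 or more TRB UMIs, 0.897 with the group without productive TRB limited to full-length V-J contigs, 0.998 against cells that also carried an unproductive contig, 1.04 without the leading chain of each group, 1.16 without cells whose chain was found beside a productive one, 1.04 in Xist-only cells, 1.05 without cells with other Trbv transcripts, 1.03 without cells with 2 or more productive chains and 1.17 in turnover. Its direction thus depended on which cells were compared.

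The percent of cells whose unproductive chain was found beside a productive one was 51.1 with full-length V-J contigs, 23.0 without the leading chain of each group or without all cells of the largest chain, 42.8 in Y-linked-only and 22.6 in Xist-only cells, 23.5 without cells with other Trbv transcripts, 26.3 with Trbv13-2 not counted among these, 25.1 without cells with a mixed TRBV contig and 1.75 in turnover.

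Any TRA contig was found in 59.3% of Y-linked-only cells without and 71.0% with productive TRB, in 59.4% and 68.2% by V-J contigs, and in 73.2% and 76.1% in turnover. With productive TRB it was 71.2% where an unproductive contig was also carried, 76.1% with chains counted once and 75.3% in Xist-only cells. Productive TRA contigs were found in 43.9% and 43.6% in turnover, and with productive TRB in 38.0% of Y-linked-only and 42.2% of Xist-only cells.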
